A study of Drosophila melanogaster with 2 samples.

Results

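The 7 genes CG11050, CG32772, norpA, CG12769, Tlk, lncRNA:Vinr and CLIP-190 held the strongest ChIP-seq peaks of CG17801-GFP that lay inside genes and away from transcription start sites (TSSs). They were selected on the signal of their peaks in the reproducible peak list, among 17683 genes annotated on the main chromosome arms, so their signal there is a description and carries no test. A summit is called internal here where it lay over 250 bp from every annotated TSS. Of the 10 strongest internal summits of the list, 7 lay in these genes and the other 3 lay in no gene.

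Both libraries came from ovaries of adult female Drosophila melanogaster of unknown age, from a transgenic line with a site-specific insertion that expresses CG17801 fused at its C-terminus to GFP. Chromatin was precipitated with an antibody against GFP, and the 2 biological replicates, numbered 1 and 3, form 1 group with the same genotype, tissue and antibody. The line is a single donor strain, and peak lists hold no expression values, so the tissue label was not checked against marker genes. The authors deposited a peak list for each replicate and a list pooled over both, each of 30000 peaks, and a list of 6723 peaks kept by the irreproducible discovery rate (IDR) procedure. Peak signals are on the authors' scale, which the sources used here do not give, and they are compared only within a list. In the IDR list it ran from 116.7 to 4011.2, with a median of 179.9. Of the IDR summits, 2880 (42.84%) were internal.

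CG17801 belongs to the zinc finger proteins with a ZAD domain, a large family in insects whose members bind DNA through arrays of zinc fingers, and some of which act at chromatin insulators. ChIP-seq reports where a protein, or a complex that holds it, is crosslinked to DNA, and a peak inside a gene can lie in an intron, an exon or at a start site that the annotation does not hold. Introns of Drosophila genes, above all long first introns, often carry enhancers. Among the genes described here, norpA encodes the phospholipase C of the fly photoreceptor, which acts downstream of rhodopsin in phototransduction. Tlk encodes the Tousled-like kinase, which phosphorylates the histone chaperone Asf1. CLIP-190 encodes a protein of microtubule plus ends related to mammalian CLIP-170, and lncRNA:Vinr is a long non-coding RNA induced by virus infection.

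The sequences around the strongest internal summit are shown for 5 of the genes, so that the sites can be compared base by base. Each is 151 bases of the plus strand of the RefSeq sequence of Release 6 (dm6), written 5′ to 3′ and centred on the summit. The windows were chr2L:6612624-6612774, chrX:4910316-4910466, chrX:4324914-4325064, chrX:3742148-3742298 and chrX:12751249-12751399. Capitals mark matches, on either strand, to 10 words of 7 bases that were more frequent at other strong summits than nearby and are described with the sequence results. The windows of CG12769 and CLIP-190 are described by their counts.
CG11050: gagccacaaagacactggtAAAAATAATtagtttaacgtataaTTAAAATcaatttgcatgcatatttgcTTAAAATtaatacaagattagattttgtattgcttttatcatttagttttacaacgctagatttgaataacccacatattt
CG32772: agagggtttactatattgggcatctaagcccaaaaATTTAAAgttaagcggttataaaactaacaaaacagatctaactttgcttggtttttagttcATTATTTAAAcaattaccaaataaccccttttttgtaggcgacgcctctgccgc
norpA: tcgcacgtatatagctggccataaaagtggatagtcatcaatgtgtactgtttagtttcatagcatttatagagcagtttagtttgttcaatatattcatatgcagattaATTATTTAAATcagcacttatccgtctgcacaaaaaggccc
Tlk: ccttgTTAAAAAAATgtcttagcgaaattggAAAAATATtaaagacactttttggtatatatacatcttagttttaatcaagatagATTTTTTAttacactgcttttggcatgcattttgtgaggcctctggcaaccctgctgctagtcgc
lncRNA:Vinr: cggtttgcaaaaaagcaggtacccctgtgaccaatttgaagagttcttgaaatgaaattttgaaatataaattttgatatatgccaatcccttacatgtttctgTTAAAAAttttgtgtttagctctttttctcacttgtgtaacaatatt

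CG11050 (FBgn0031836, 2L, 6611011 to 6617117, plus strand) held the strongest peak of the whole IDR list. Its summit lay at 6612699, with a signal of 4011.2 in the IDR list, rank 1, 1746.4 in replicate 1, rank 2, and 2292.4 in replicate 3, rank 1. The site was in the second intron, of only 140 bp, in all 3 annotated transcripts, 1012 bp from the nearest TSS. The peak spanned 740 bp, so it reached beyond the intron into the exons on both sides.

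CG32772 (FBgn0052772, X, 4909102 to 4915161, plus strand) came next among internal summits, at 4910391. The signal was 2980.2 in the IDR list, rank 4, with 1330.8 in replicate 1, rank 4, and 1616.7 in replicate 3, rank 5. It lay in an intron of 1054 bp in 2 of the 4 transcripts, 1289 bp from a TSS, while the other 2 transcripts start downstream of it. The same interval of 877 bp carried a second summit at 4910599 with a signal of 914, so both summits share a peak region.

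In norpA (FBgn0262738, X, 4322626 to 4365408, plus strand) the summit at 4324989 had an IDR signal of 2298.3 and rank 8. Replicate 1 gave 1054.4, rank 6, and replicate 3 gave 1257.8, rank 13. This site lay in the first intron of 4 of 6 transcripts, 1380 bp from the nearest TSS. That intron is 9640 bp long in 2 of the 4, 8994 bp in 1 and 2192 bp in 1. The nested gene CG12693 lies downstream, from 4327080 to 4329457, and the internal summit was the IDR summit nearest to it.

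The peak of lncRNA:Vinr (FBgn0287633, X, 12749894 to 12752350, plus strand) was the widest of the whole IDR list, at 1565 bp. It was the widest in neither replicate list, with 720 bp in replicate 1 and 996 bp in replicate 3, against maxima of 1134 and 1169 bp. Its summit at 12751324 had a signal of 2158.8 in the IDR list, rank 12. The replicates differed more here, with 688 in replicate 1, rank 30, and 1337.4 in replicate 3, rank 9. The summit lay in the single exon of this non-coding gene, 1430 bp from its own TSS and 543 bp from that of lncRNA:CR44619, the nearest start site.

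CG12769 (FBgn0033252, 2R, 8052080 to 8065554, minus strand) had its summit at 8061007, with an IDR signal of 2057.9 and rank 16. The replicates ranked it 16 and 17, with signals of 864.5 in replicate 1 and 1197.8 in replicate 3. It lay in a first intron of 7908 bp in 2 of 3 transcripts and, at 2456 bp, was the member summit farthest from a TSS.

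For Tlk (FBgn0283657, X, 3720007 to 3789770, plus strand) the strongest internal summit was at 3742223, with an IDR signal of 1887.7 and rank 19. Replicate 1 gave 884, rank 12, and replicate 3 gave 1012.1, rank 24. It lay in an intron in 8 of 14 transcripts, 60007 bp long in 6 of them, 56783 bp in 1 and 41450 bp in 1, and 2326 bp from a TSS.

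CLIP-190 (FBgn0020503, 2L, 17384700 to 17409698, plus strand) had the weakest of the 7 peaks and the one nearest to a start site. Its summit at 17385364 had a signal of 1726.1 in the IDR list, rank 25, with 482.8 in replicate 1, rank 81, and 1237.7 in replicate 3, rank 14. It lay 349 bp downstream of a TSS, in the 5′ UTR of 5 of 15 transcripts and in an intron of 1. With internal defined as over 500 bp from a TSS, CLIP-190 would not be among these genes.

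**Figure D1:**
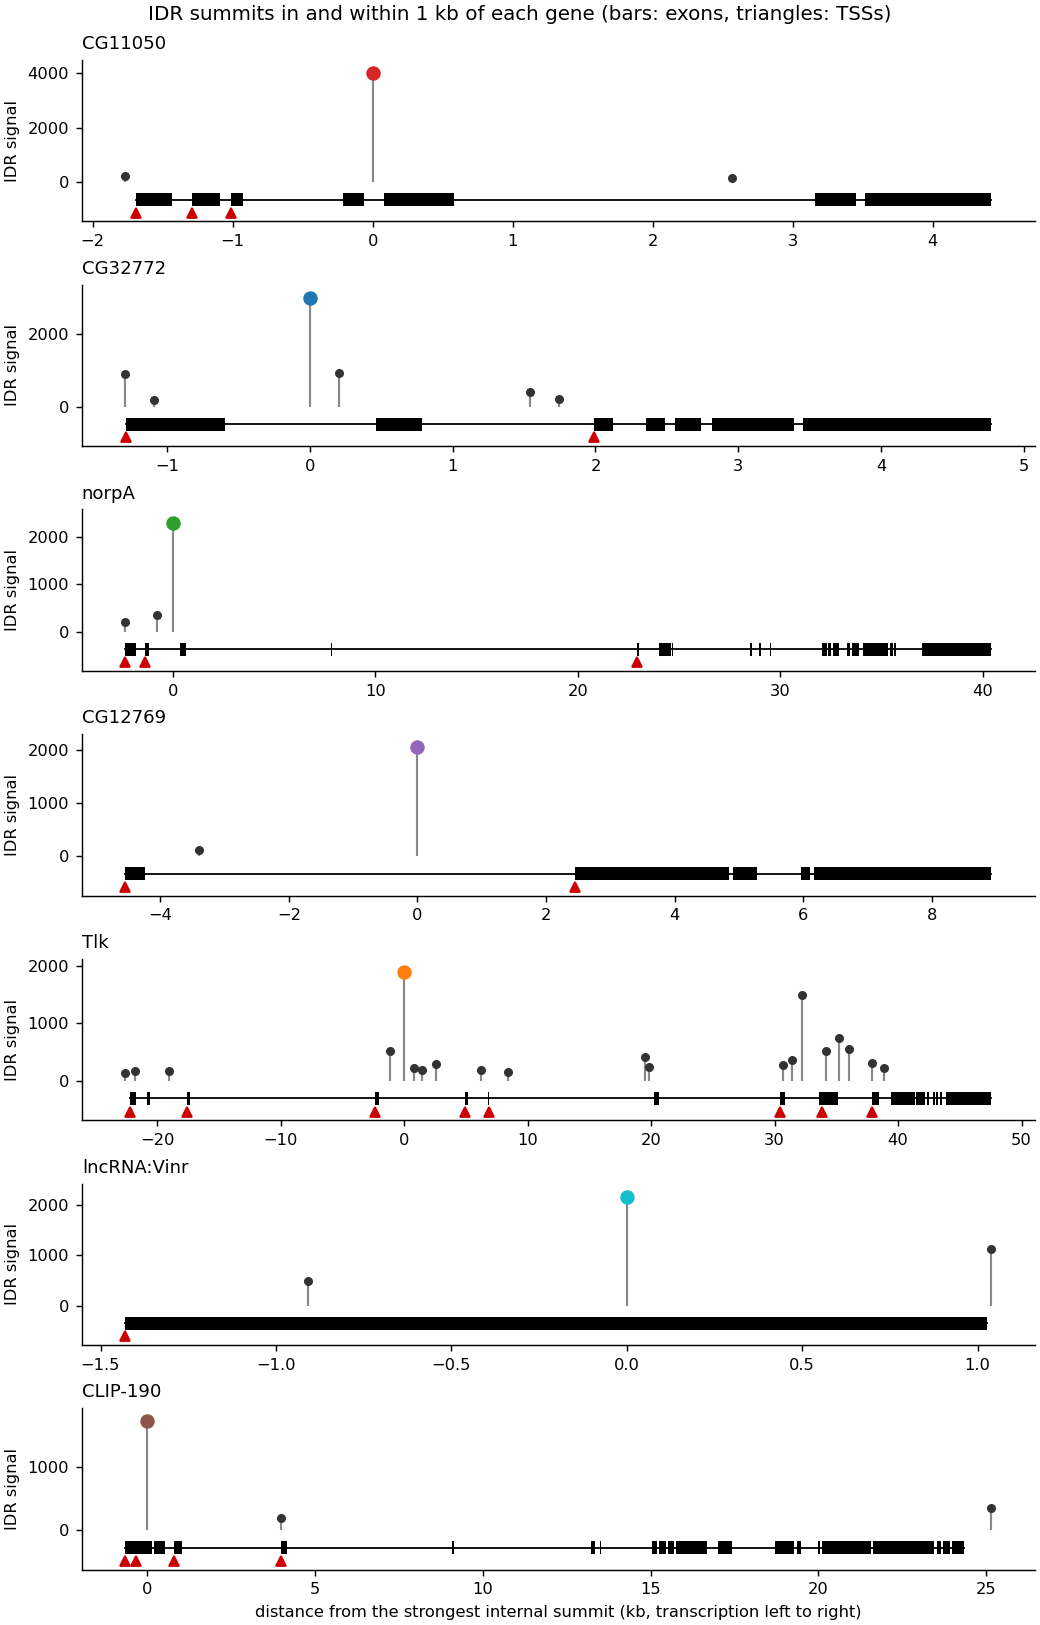
IDR summits in each of the 7 genes and within 1 kb of it, plotted by distance in kb from the strongest internal summit (horizontal axis, transcription from left to right) and by IDR signal (vertical axis, linear). Bars are exons of all annotated transcripts, triangles are TSSs and the coloured point is the strongest internal summit; in CG11050 it stands at 4011.2 beside neighbours of 226.1 and 147.4, while Tlk carries 20 summits.

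The selection ended between the peaks of CLIP-190, at 1726.1, and Lk6, which encodes a kinase of the translation factor eIF4E, at 1663.4 (rank 27). The next internal summit below that was in Cat, the catalase gene, at 1649.9 (rank 29), and the next member above was Tlk at 1887.7. The step at the boundary was therefore small against the range of the 7 values. The 3 stronger summits outside genes were nearest to DNAlig3 (2300.9), CG31668 (2217.7) and Hmg-2 (1924.9).

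**Figure D2:**
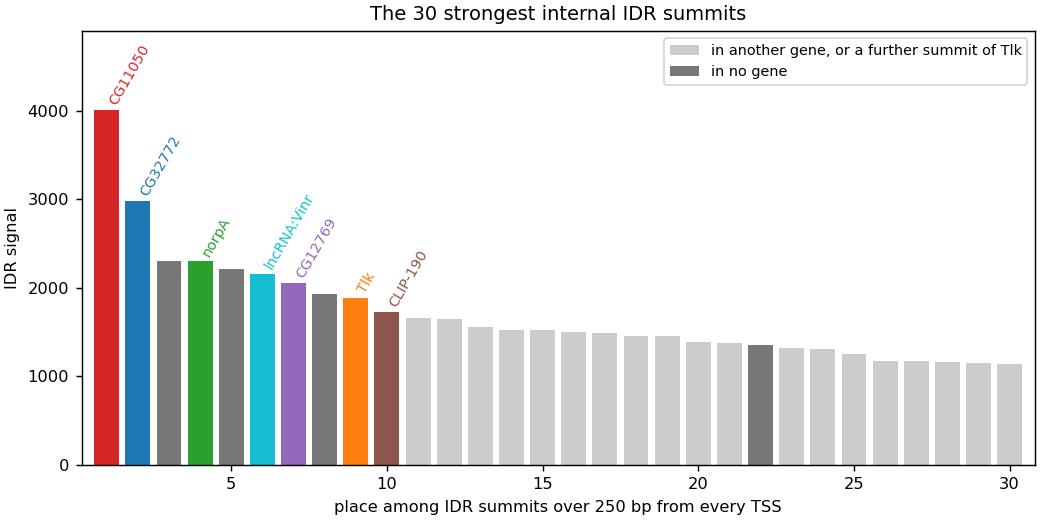
IDR signal (vertical axis, linear, authors' scale) of the 30 strongest internal summits in order (horizontal axis). Coloured bars are the strongest summits of the 7 genes, dark grey bars lie in no gene and light grey bars in other genes or at a further summit of Tlk; the bars fall from 4011.2 at CG11050 to 1726.1 at CLIP-190 and go on without a gap to 1663.4 at Lk6.

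The peaks of the 7 genes had widths from 427 to 1565 bp with a median of 735 bp, against a median of 364 bp over the 2880 internal IDR summits and 466.5 bp over the 50 strongest of them. CG12769 (427 bp), norpA (433 bp) and CLIP-190 (451 bp) were below the latter. Their distances to the nearest TSS ran from 349 to 2456 bp, with 5 of 7 over 1 kb away, against 62.67% of all internal summits and 44% of the 50 strongest. By chromosome arm, 4 of the 7 genes were on X, 2 on 2L and 1 on 2R. X held 27.4% of all internal IDR summits and 22 of the 50 strongest.

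The contrast with the gene's own promoter differed widely between the genes. Own-promoter signal is that of the strongest summit within 250 bp of a TSS of the same gene, and 5 of the 7 genes had such a summit in the IDR list. In all 5 the internal summit was the stronger. For the comparison over all genes, internal summits up to 1 kb outside a gene were counted for it, so neighbouring genes can have the same one. Over the 967 annotated genes with both kinds of summit, the internal one was stronger in 53.2%, with a median ratio of 1.067, quartiles of 0.6901 and 1.89 and a 95th percentile of 4.51. Since the members were chosen for a high internal signal, the count of 5 of 5 is fixed in large part by the choice and is not read against that share.

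CG11050 showed the greatest contrast of all 967 genes. Its promoter summit at 6610931 had a signal of 226.1 in the IDR list. The strongest own-promoter summit was at 6611035 in replicate 1, with a signal of 84.77, and at 6610929 in replicate 3, with 129.6, so the internal peak was 17.74-fold stronger in the IDR list, 20.6-fold in replicate 1 and 17.68-fold in replicate 3 (mean 19.1 ± 2.06 SD, n = 2). In both replicates the internal summit was above the strongest own-promoter summit, which had ranks 3303 and 2353. The replicate 1 promoter summit at 6611035 was not within 100 bp of the IDR one, so these 2 ranks need not be of the same site.

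The photoreceptor gene norpA was in place 4 of the 967 by this ratio. Its promoter summit at 4322642, in the 5′ UTR, had a signal of 208.9 in the IDR list, 72 in replicate 1 and 159 in replicate 3. The internal peak was 11-fold stronger in the IDR list, 14.64-fold in replicate 1 and 7.911-fold in replicate 3 (mean 11.3 ± 4.76 SD, n = 2). CLIP-190 was in place 7, with a promoter summit exactly at the TSS used by 7 of its transcripts, at 17389341, and a signal there of 202.3, 83.68 in replicate 1 and 115.9 in replicate 3. Its ratio was 8.534 in the IDR list, 5.769 in replicate 1 and 10.68 in replicate 3 (mean 8.23 ± 3.48 SD, n = 2). This contrast ends with own promoters drawn to 500 bp, since the internal peak, 349 bp from a TSS, is then its own promoter peak (log2 ratio 0).

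Tlk was in place 22. The promoter summit at 3780123, at the most downstream of its 8 TSSs, had a signal of 309.7 in the IDR list, 112.1 in replicate 1 and 198.6 in replicate 3. The ratio was 6.095 in the IDR list, 7.882 in replicate 1 and 5.096 in replicate 3 (mean 6.49 ± 1.97 SD, n = 2). The replicate ratios of CLIP-190 overlapped with those of norpA and of Tlk, while the lower value of norpA, 7.911, was just above the higher value of Tlk, 7.882.

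CG32772 had the lowest contrast of the 5, in place 85, and a strong promoter peak. The promoter summit, at 4909099 and 3 bp from the TSS, had a signal of 897.9 in the IDR list, rank 155, with 388.5 in replicate 1 and 508.5 in replicate 3. The ratio was 3.319 in the IDR list, 3.425 in replicate 1 and 3.179 in replicate 3 (mean 3.30 ± 0.174 SD, n = 2). These replicate values were below those of the other 4 genes with an own-promoter IDR summit.

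CG12769 had no own-promoter summit in the IDR list. A weak summit at its upstream TSS was listed in the longer lists, with a signal of 93.98 in the pooled list (rank 8856), 59.27 in replicate 1 and 29.34 in replicate 3. The internal peak was 14.59-fold stronger in replicate 1 and 40.83-fold in replicate 3 (mean 27.7 ± 18.6 SD, n = 2), a spread that comes with a promoter summit of rank 17056 in replicate 3. lncRNA:Vinr had no summit within 250 bp of its TSS in any of the 4 lists.

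**Figure D3:**
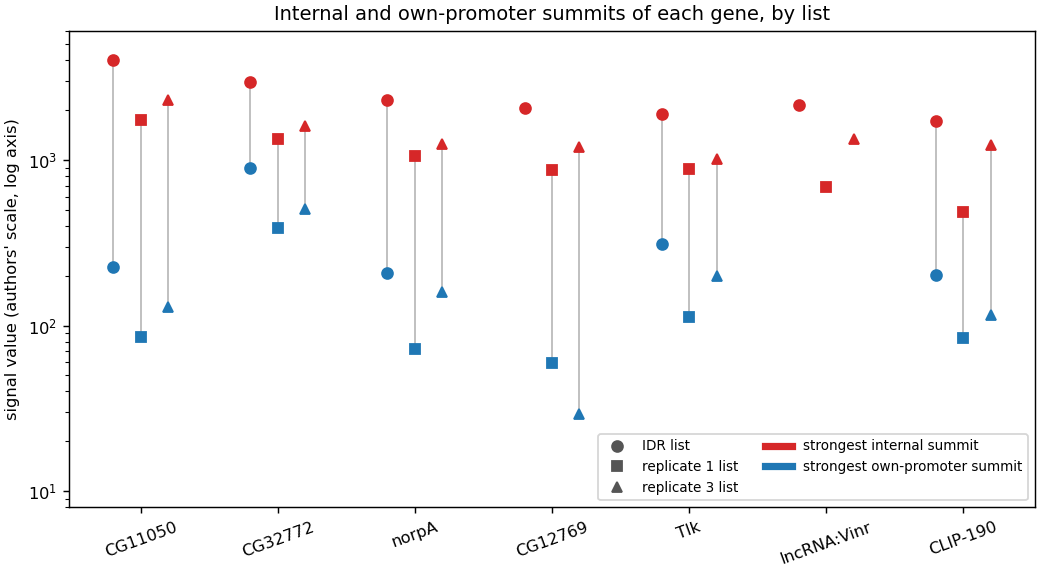
Signal (vertical axis, log scale, authors' scale) of the strongest internal summit in red and of the strongest own-promoter summit in blue for each gene. Circles are the IDR list, squares replicate 1 and triangles replicate 3, and grey lines join values of the same list; the red point is above the blue point wherever both exist, and lncRNA:Vinr has no blue point.

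**Figure D4:**
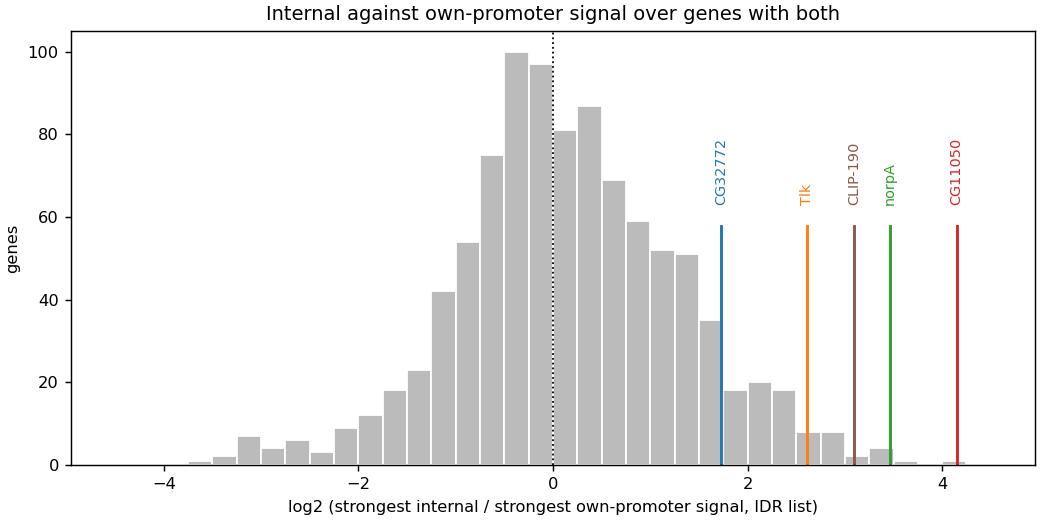
Histogram of the log2 ratio of the strongest internal to the strongest own-promoter IDR signal (horizontal axis) over the 967 genes with both (vertical axis, number of genes). Internal summits up to 1 kb outside a gene were counted for it. Coloured lines mark the 5 genes, from CG32772 at 1.73 to CG11050 at 4.15 on the log2 scale; the dotted line marks equal signals.

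The 7 genes carry 23 annotated TSSs. Within 250 bp, 6 of these TSSs had a summit of the IDR list, against 23.2% of the 23133 annotated TSSs. CG32772 had a summit within 250 bp of both of its TSSs. For the TSS at 4912381 it was the summit at 4912137, near the limit of 250 bp, with a signal of 221.2. Replicate 3 listed no summit within 250 bp of that TSS, but did list one within 100 bp of 4912137, at rank 1795. Of the 8 TSSs of Tlk 1 had a summit, of the 4 of CLIP-190 1, and of the 3 each of CG11050 and norpA 1. In the pooled list, which is longer, 12 of the 23 TSSs had a summit. The share over all annotated TSSs was not computed for that list, so this count has no background.

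Further peaks lay around the strongest summits. Counting 1 kb on either side of each gene, the IDR list held 40 summits over the 7 genes, of which 30 were internal and 10 lay within 250 bp of a TSS. The 10 include the summit at 3777444 in Tlk, for which the annotated start of the mir-4962 hairpin was taken as the TSS. The 33 summits besides the strongest ones had signals from 122.5 to 1496.9 with a median of 277.9. Of all 40, 39 had a summit within 100 bp in both replicate lists, against 93.28% of all IDR summits, and 30 had one within 50 bp. The exception was the promoter summit of CG11050, which had a match within 100 bp in replicate 3 alone, as the nearest summit in replicate 1 was farther away. Since the IDR list keeps peaks that recur between these replicates, the high share matched in both follows largely from how the list was made.

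Tlk had the most summits. The gene and its margins held 20 IDR summits, 8 of them among the 1000 strongest of the list, with a median signal of 288.9 over all 20. Inside the gene were 19, the highest count among the 3605 genes of at least 5 kb, ahead of Mnt, bun and sbb with 17 each. Tlk is 69.76 kb long, and its 2.723 summits per 10 kb exceeded the density of 94.98% of those genes. The second strongest summit, at 3774454, lay 32231 bp from the first, with a signal of 1496.9 in the IDR list, 612.4 in replicate 1 and 883.2 in replicate 3. The strongest summit was thus only 1.261-fold above the next in the IDR list. Of the IDR signal summed over the gene and its 1 kb margins it held 20.66%.

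A further site of Tlk, at 3777444, lay inside the annotated hairpin of mir-4962 (X, 3777382 to 3777505). It had a signal of 752.4 and rank 227 in the IDR list, with rank 276 in replicate 1 and 214 in replicate 3. It was 62 bp from the annotated start of the hairpin and 1385 bp from the nearest TSS of Tlk. The summit at 3719628, upstream of Tlk, was 7 bp from the TSS of Rala, a Ral GTPase gene.

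The other genes had fewer sites. CG32772 held 5 summits in 6.06 kb, or 8.251 per 10 kb, a density above that of 99.94% of the genes of at least 5 kb. Those at 4910391 and 4910599 formed a close pair, as did those at 4911936 and 4912137. The summit at 4909299 was close to the promoter summit at 4909099. The density of CG32772 thus counts summits, not separate regions. lncRNA:Vinr had a second strong summit at 12752363, just beyond its 3′ end, with a signal of 1129.3 in the IDR list, 423.5 in replicate 1 and 704.2 in replicate 3 and another at 12750414 with 481.4. In CG11050 and CG12769 the strongest summit held nearly all of the IDR signal summed over the gene and its 1 kb margins, at 91.48% and 94.38%. The IDR list leaves out weaker peaks, and in the longer replicate lists these shares were lower. They were 82.78% in replicate 1 and 84.39% in replicate 3 for CG11050, and 69.51% and 80.71% for CG12769. The second summit of CG12769 was 16.8-fold weaker in the IDR list, 12.52-fold in replicate 1 and 26.02-fold in replicate 3. The share in the IDR list was 80.54% in norpA, 75.53% in CLIP-190, 57.27% in lncRNA:Vinr and 52.95% in CG32772. These sums include summits outside the gene, such as 1129.3 beyond the 3′ end of lncRNA:Vinr and 357 beyond that of CLIP-190. The second summit of CLIP-190, at 17410520, was at the promoter of Polr2J, an RNA polymerase II subunit gene.

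Both replicates listed each of the 7 peaks within 100 bp of its IDR summit, and 6 of the 7 within 50 bp, since the replicate 1 summit of CG11050 was farther away. The summits of the replicates were 2 to 40 bp apart. CG32772 had the smallest distance and CG11050 the largest, in an intron of 140 bp. Of the 50 strongest internal IDR summits, 100% were listed within 100 bp in both replicates, and the median distance was 15 bp. As the IDR list keeps peaks that recur between the replicates, presence in both was largely set beforehand.

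Ranks were less even than positions. The larger rank divided by the smaller was 1.062 for CG12769, 1.25 for CG32772, 2 for CG11050 and for Tlk, 2.167 for norpA, 3.333 for lncRNA:Vinr and 5.786 for CLIP-190. Over the 50 strongest internal summits the median was 1.412 and the upper quartile 1.848, so 5 of the 7 genes were above that quartile. Ranks near the top of a list differ by large factors for small steps.

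Signal relative to the median of each replicate list gives the size of those differences. For CG32772 the values were 48.1 in replicate 1 and 48.23 in replicate 3, and for norpA 38.11 and 37.53. CG11050 had 63.13 and 68.39, Tlk 31.95 and 30.19, and CG12769 31.25 and 35.73. These 5 genes had nearly equal values in the replicates. By contrast, lncRNA:Vinr had 24.87 and 39.9 (mean 32.4 ± 10.6 SD, n = 2), and CLIP-190 had 17.45 and 36.92 (mean 27.2 ± 13.8 SD, n = 2). Both were higher in replicate 3. Both replicate values of CG11050 were above those of CG32772, and those of CG32772 were above the values of the other 5 genes. Among these 5, norpA was above CG12769 and Tlk in both replicates, and the values of CG12769 and Tlk overlapped. Those of lncRNA:Vinr overlapped with each of the other 4 genes, and those of CLIP-190 with CG12769, Tlk and lncRNA:Vinr.

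**Figure D5:**
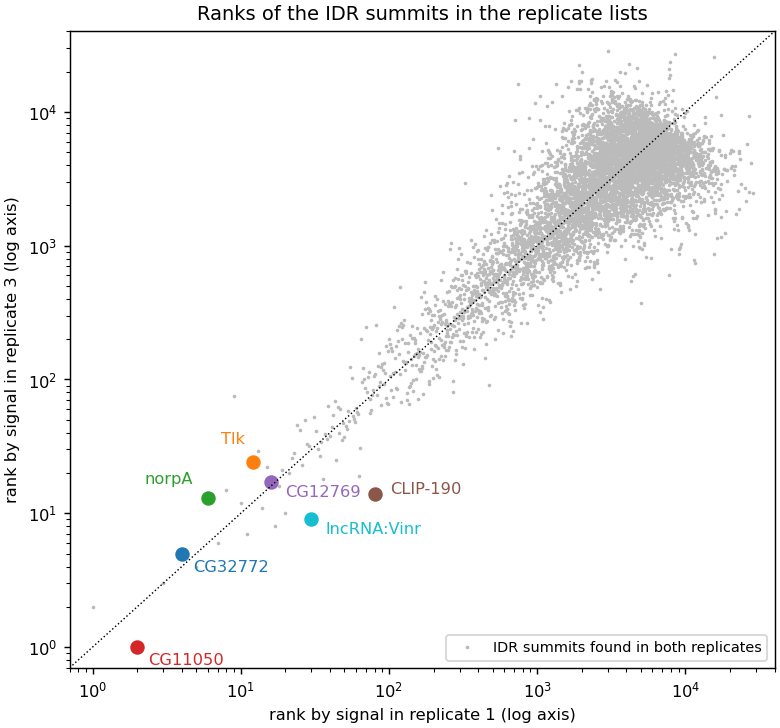
Rank by signal in replicate 1 (horizontal axis, log scale) and replicate 3 (vertical axis, log scale) of the IDR summits found in both replicate lists. Grey points are IDR summits, coloured points the strongest internal summits of the 7 genes and the dotted line equal ranks; CLIP-190, at ranks 81 and 14, and lncRNA:Vinr, at 30 and 9, lie farthest from the line among the 7.

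A panel of motifs of known promoter factors was counted in the windows within 100 bp of the 7 summits. The motifs were searched on both strands, and a match describes letters, not binding. The DRE (TATCGATA), the core of the M1BP motif (GGTCACAC), the Zelda motif (CAGGTAG), the E-box CACGTG, a CTCF core (AGNGGCGC) and the repeat CACACA were in 0 of the 7 windows. The DRE was in 0.8365% of windows at internal IDR summits and 10.07% at promoter IDR summits. The M1BP core was in 0.2788% and 7.026%, so nearly all internal windows lacked both. The Zelda motif was in 0.9062% of internal windows, the E-box in 2.091%, the CTCF core in 2.266% and CACACA in 21.16%. Beside these shares, 0 of 7 is not read as a result about these genes. GAGAGAG, bound by GAGA factor, was in the window of Tlk alone, against 8.714% of internal windows, and CGATA, the core bound by BEAF, also in that of Tlk alone, against 22.24%. CGATA is contained in the DRE. TATAAA was in 4 windows, those of CG32772, norpA, lncRNA:Vinr and CLIP-190, against 31.86% of internal windows.

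Words of 7 bases were ranked without the 7 sites, by how much more often they occurred at the 500 strongest other IDR summits than in windows 1 kb away. The first 10 were made of A and T alone, and many overlap each other by all but 1 base, so their counts are not independent. The leading word AAATAAA was in the window of CLIP-190 alone, against 33.84% of internal windows. Next were ATTTTAA in 3 member windows against 16.77%, AAAAATA in 4 against 29.7%, AAAATAT in 5 against 21.85%, AAAATAA in 2 against 30.32% and ATTTAAA in 2 against 14.81%. The last were TAAAAAA in 2 against 23.77%, TTAAAAA in 2 against 20.11%, AAATAAT in 4 against 19.55% and AAAAAAT in 3 against 28.48%. The member windows held from 2 of these words, in CG32772 and norpA, to 6, in CG11050 and CLIP-190. The median was 2 at internal IDR summits and 1 in windows 1 kb from them. It was 3 at the 500 strongest other IDR summits, on which the words were ranked. Among the 50 strongest other internal windows, shares of single words ran from 20% for TTAAAAA to 48% for AAATAAA. The 5 windows with AAAATAT were those of CG11050, CG12769, Tlk, lncRNA:Vinr and CLIP-190, against 22.69% of promoter windows and 32% of the 50 strongest internal ones. In the printed sequences, which are shorter than these windows, lncRNA:Vinr has a single run in capitals, and the runs of CG11050 lie before its summit or at it.

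The share of A and T in the windows ran from 58.21% at CG32772 to 71.14% at CG12769. The median over internal IDR summits was 63.68%, over promoter IDR summits 60.2%, and in windows 1 kb from internal summits 59.2%. The flanks 1 kb away had less A and T than the summit window in 4 genes, with 57.21% in CG12769, 51.49% in Tlk, 55.97% in norpA and 60.7% in lncRNA:Vinr. They had more in the other 3, with 67.41% in CG32772, 65.92% in CG11050 and 68.41% in CLIP-190.

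Other genes of the pathways of 4 of the genes were then placed beside them. Of 47 genes in 4 lists, 46 were found in the annotation. A promoter summit, within 250 bp of their own TSSs, was present in 23 of those in the IDR list, and 9 had an internal one. Over 13945 protein-coding genes the shares were 30.4% with a promoter summit and 8.85% with an internal one inside the gene. The highest internal signal among the listed genes was 674, at jar.

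Among 15 genes of phototransduction, 3 had a promoter summit and 1 an internal one. They were rdgB, a phosphatidylinositol transfer protein gene, with 375.3 at the promoter and 181.2 inside, Plc21C, another phospholipase C gene, with 234.9, and Galphaq, the G protein subunit that activates the NORPA enzyme, with 158. The genes of rhodopsin (ninaE) and of the TRP and TRPL channels had no IDR summit. Apart from norpA itself, the internal signal of rdgB was the only one in this pathway list.

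Of 11 genes of microtubule plus ends and motors, 8 had a promoter summit and 3 an internal one. The CLASP gene chb had the strongest promoter signal, 536.2. The internal summits were in jar, the myosin VI gene, with 674, in Dhc64C, the dynein heavy chain gene, with 414, and in msps, a microtubule polymerase gene, with 185.6. The promoter summits of jar (264.1) and Dhc64C (156.6) were weaker than their internal ones. The remaining promoter signals were 307.8 at didum, 213.6 at Lis-1, 159.3 at Eb1, 135.3 at Khc and 134.1 at nudE.

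Of 10 genes of chromatin assembly and checkpoint kinases, 5 had a promoter summit and 1 an internal one. The kinase gene mei-41, the fly ATR, had 349.8 at its promoter, XNP had 214.8, Hira 209.7, Caf1-55 163.9 and lok, the fly Chk2, 122.5. The internal summit was in grp, the fly Chk1 gene, with 530.3. The substrate gene asf1 had no IDR summit.

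Of 10 genes of the Toll and antiviral pathways, 7 had a promoter summit and 4 an internal one. The kinase gene pll had 329.5 at its promoter, the inhibitor gene cact 318.7, the adaptor gene Myd88 276.6, the Argonaute gene AGO2 230.6, Dif 176.5, cactin 156.6 and Dcr-2 147.6. Internal signals were 246.2 in cact and 136.9 in Dif, both below the promoter signal of the same gene, and 193 in Dcr-2, above it. The receptor gene Tl had an internal signal of 160.9 and no promoter summit. The lists were chosen with results of these data known, and the shares over all protein-coding genes stand beside them as the background only.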

How the data were processed

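ChIP-seq with an antibody against GFP was done on ovaries from flies expressing CG17801-GFP, in 2 biological replicates of 1 group, with fragments of 200 to 800 bp per the labels. The deposited peak lists are in narrowPeak format on dm6, per the labels. Per the text deposited with the samples, peaks were called for each replicate and for the pooled reads against a control, and the IDR list derives from those 3 lists. The sources used here give no aligner, caller or read depth, so the precision of a signal is unknown. The signal of each peak, as deposited by the authors, was used to rank peaks within a list. In the IDR list the signals equal those of the pooled list, so these 2 lists are not independent. The −log10 q-value, as deposited, was constant over the IDR list and not used. The summit is the deposited offset from the peak's start, in bp. How the signal was scaled and how broad regions were split into summits can change ranks, widths and counts of summits.

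Genes and TSSs were those of Ensembl release 115 (Release 6 assembly), without transposable element copies and mature miRNA records, a choice made after the files were seen. Summits within 100 bp were matched. Sequence was read from the RefSeq genome. Computations used Python 3.11.15, numpy 2.4.6 and matplotlib 3.10.9. The ranking of words was checked on simulated windows (random seed 17). The members and the gene lists were chosen with earlier results of these data known, and no test was run: there is 1 group, and the members were chosen on signal. Named genes are the 7 members, genes within 1 kb of their strongest internal peak, the genes next to the boundary of the selection and listed pathway genes with an IDR summit. Further genes are named for their counts or position (genes beside the strongest intergenic summits, Rala, Polr2J, CG12693, mir-4962, Mnt, bun and sbb) and were chosen after their values were seen. Control and other-factor libraries were not analysed here, so sites that any GFP fusion would show were not separated.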

Additional observations from a re-analysis of the deposited data

How the results depend on the processing

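The number of peaks over the 7 genes depends on the length of the list: 40 in the IDR list, 105 in the pooled list, and 105 to 113 in the single replicate lists, of 30000 peaks each. Cut to the length of the IDR list, a choice made after seeing the data, the replicate lists gave 43 and 45. The internal summit was the stronger in 5 of 5 genes in the IDR list and in 4 to 6 genes under the 9 alternatives. With own promoters reaching 500 bp, the internal peak of CLIP-190 became its own promoter peak, and the log2 ratio of Tlk was 1.86 in place of 2.61. With promoters within 100 bp, 12 pathway genes in place of 23 had a promoter summit. The share over all protein-coding genes was not computed at 100 bp. The word AAATAAA was in 1 member window within 100 bp and in 2 within 250 bp. Leaving out replicate 3 moved the log2 ratio of CG11050 from 4.15 to 4.37, more than the replicate SD. The ratios of CLIP-190 (3.093 to 2.528), norpA (3.46 to 3.872) and Tlk (2.608 to 2.979) moved further, but within their larger SDs. That of CG32772 moved less (1.731 to 1.776). Matching within 50 bp in place of 100 bp found 6 in place of 7 of the strongest summits, and 30 in place of 39 of all 40, in both replicates. No value changed sign. No paired analysis was possible because the series has 1 group. Read depth is unknown, so no counting error can be given, and with 2 replicates each SD rests on 2 values.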

Other observations

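The word TTAGTTT was noticed by eye in the printed windows after they were seen, as 1 of 7 words counted in this way, and longer and shorter words had also been ranked by ratio. It was in the windows of CG11050, CG32772, norpA and Tlk, against 8.4% of internal IDR windows, 7.39% of promoter IDR windows and 6.763% of windows 1 kb from internal summits. Among the 50 strongest other internal windows it was in 14%. The other 6 words were in from 1 member window, for ATTTAAAT (3.032% of internal IDR windows), to 5, for TTTAG (42.24%). Since TTAGTTT was picked from these windows, its count of 4 of 7 is a description only.

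In the order of internal over own-promoter signal, the genes between CG11050 and CLIP-190 other than norpA were hng3 (11.51), HmgZ (11.02), HmgD (10.73) and CG9663 (10.62), named after their values were seen. HmgZ and HmgD overlap at the same internal summit, which has a signal of 1454.7.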
